A study of Homo sapiens with 18 samples.

Results

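Tissue factor and the genes of plasminogen activation were measured in 3 bladder cancer cell lines through 12 probes for 7 genes. The array held a named probe for 20046 genes. The members were set by name: tissue factor (F3), its inhibitors TFPI and TFPI2, thrombomodulin (THBD), the plasminogen activators PLAU (urokinase) and PLAT (tissue-type), the urokinase receptor PLAUR, and F2RL1, a receptor that proteases activate by cleavage. No probe carried the name F2RL1, which is therefore not analysed here. The list was drawn up with group differences of these same arrays in view, so its genes count as selected on their log2 differences between the groups. The values and calls below describe these arrays and are no independent support for a pattern among them.

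Total RNA was hybridised to 18 Illumina bead arrays, 3 for each of 6 groups. In UC14 the groups were cells with a p63 shRNA, p63 being a transcription factor of basal and stratified epithelia, and cells with a non-targeting shRNA. Scaber cells received an siRNA against STAT3, a transcription factor of cytokine signalling, or a non-targeting siRNA. UC7 cells received rosiglitazone, which activates the nuclear receptor PPARG, at 1 µM for 24 h, or were controls. Each intervention was compared with the control group of its own line. Each line met a single intervention, so where changes differ between the comparisons, line and intervention cannot be told apart. The sources used here do not say how many shRNA or siRNA sequences or clones stand behind a group. The 5 epithelial markers EPCAM, CDH1, KRT8, KRT18 and KRT19 were detected on every array.

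Tissue factor is a membrane receptor for coagulation factor VII and starts the clotting cascade. TFPI blocks the complex of tissue factor with factor VII, TFPI2 is a related protease inhibitor of the extracellular matrix, and thrombomodulin turns thrombin towards the activation of the anticoagulant protein C. Urokinase and tissue-type activator cut plasminogen to plasmin, which dissolves fibrin and degrades matrix, and the urokinase receptor holds urokinase at the cell surface. In carcinomas, tissue factor, urokinase and its receptor are known as genes of the pericellular proteolysis that accompanies invasion.

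Promoters of F3 and PLAU, which head the results, and of the urokinase receptor PLAUR, which holds the motif marked in F3, are shown because each intervention was aimed at a transcription factor, and upstream sequence is where such factors are commonly studied. They come from RefSeq (GRCh38.p14), read 5′ to 3′ on the gene's own strand, and span 250 bases before to 50 bases after the start site. Capitals mark the AP-1 motif TGANTCA, where N is any base, which is not the motif of a factor targeted here. No p63 motif was searched. The TFPI2 promoter, which also holds the AP-1 motif, is not shown.
F3, chr1:94541710-94542009, minus strand: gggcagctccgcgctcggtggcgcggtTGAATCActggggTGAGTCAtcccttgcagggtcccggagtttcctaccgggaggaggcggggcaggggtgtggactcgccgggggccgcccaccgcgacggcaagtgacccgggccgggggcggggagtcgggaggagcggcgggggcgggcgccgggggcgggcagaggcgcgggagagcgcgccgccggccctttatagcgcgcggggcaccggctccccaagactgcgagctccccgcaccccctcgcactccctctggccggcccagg
PLAUR, chr19:43670120-43670419, minus strand: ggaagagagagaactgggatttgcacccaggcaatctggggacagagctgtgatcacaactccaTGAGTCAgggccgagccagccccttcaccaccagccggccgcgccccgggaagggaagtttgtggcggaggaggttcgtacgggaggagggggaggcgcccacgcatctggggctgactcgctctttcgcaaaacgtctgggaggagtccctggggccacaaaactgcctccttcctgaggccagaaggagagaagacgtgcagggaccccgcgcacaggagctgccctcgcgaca
PLAU, chr10:73910882-73911181, plus strand: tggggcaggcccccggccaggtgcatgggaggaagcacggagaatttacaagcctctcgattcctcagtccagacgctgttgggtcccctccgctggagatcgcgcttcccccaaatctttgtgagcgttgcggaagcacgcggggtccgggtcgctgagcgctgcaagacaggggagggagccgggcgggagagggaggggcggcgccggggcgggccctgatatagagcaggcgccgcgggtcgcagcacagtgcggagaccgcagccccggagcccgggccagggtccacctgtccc
In 7 listed promoters of 6 members (F3, TFPI, TFPI2, PLAUR and F2RL1, and 2 starts of PLAU), 4 motifs were searched on both strands. The AP-1 motif, which reads the same on both strands, occurred 2 times in F3, as TGAATCA from position -223 and TGAGTCA from -210, counted from the start site. It occurred once in PLAUR, as TGAGTCA from -186, and once in TFPI2, as TGAATCA from -87. Of all 35116 promoters of that length, 7.71% held it. The TATA box TATAAA stood on the other strand of the F3 promoter, as TTTATA from -28, and 11.5% of all promoters held it on either strand. The STAT motif TTCNNNGAA was found in F2RL1 alone, as TTCCCTGAA from -6, against 7.66% of all promoters, and the direct repeat of nuclear receptors (AGGTCA, any base, AGGTCA) in none of the 7, against 0.0228%. These matches describe letters and not bound sites.

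Levels below are background-corrected, quantile-normalized log2 signals, given in the order of replicates 1, 2 and 3, and a difference of 1 on that scale is 2-fold. A probe counted as detected on an array where its detection p was under 0.01. A gene is said to rise or fall where its difference passed an adjusted p under 0.05 in limma, adjusted over 16221 probes, and errors after ± beside a log2 change are standard errors of that fit. Whether a group's arrays stand for separate cultures is not stated in the labels. This error therefore measures the spread between arrays, which may be technical. It comes from a spread per probe shared by all 6 groups, not from the groups compared alone. F3 probe ILMN_1797009, for example, has an error of 0.19 in every line. Its SDs were 0.36 and 0.48 in the UC14 groups, against 0.07 and 0.08 in those of Scaber (n = 3). A gene is represented by its brightest probe where genes are counted. In all these bulk samples, fewer cells of a type and less RNA per cell cannot be told apart.

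**Figure D1:**
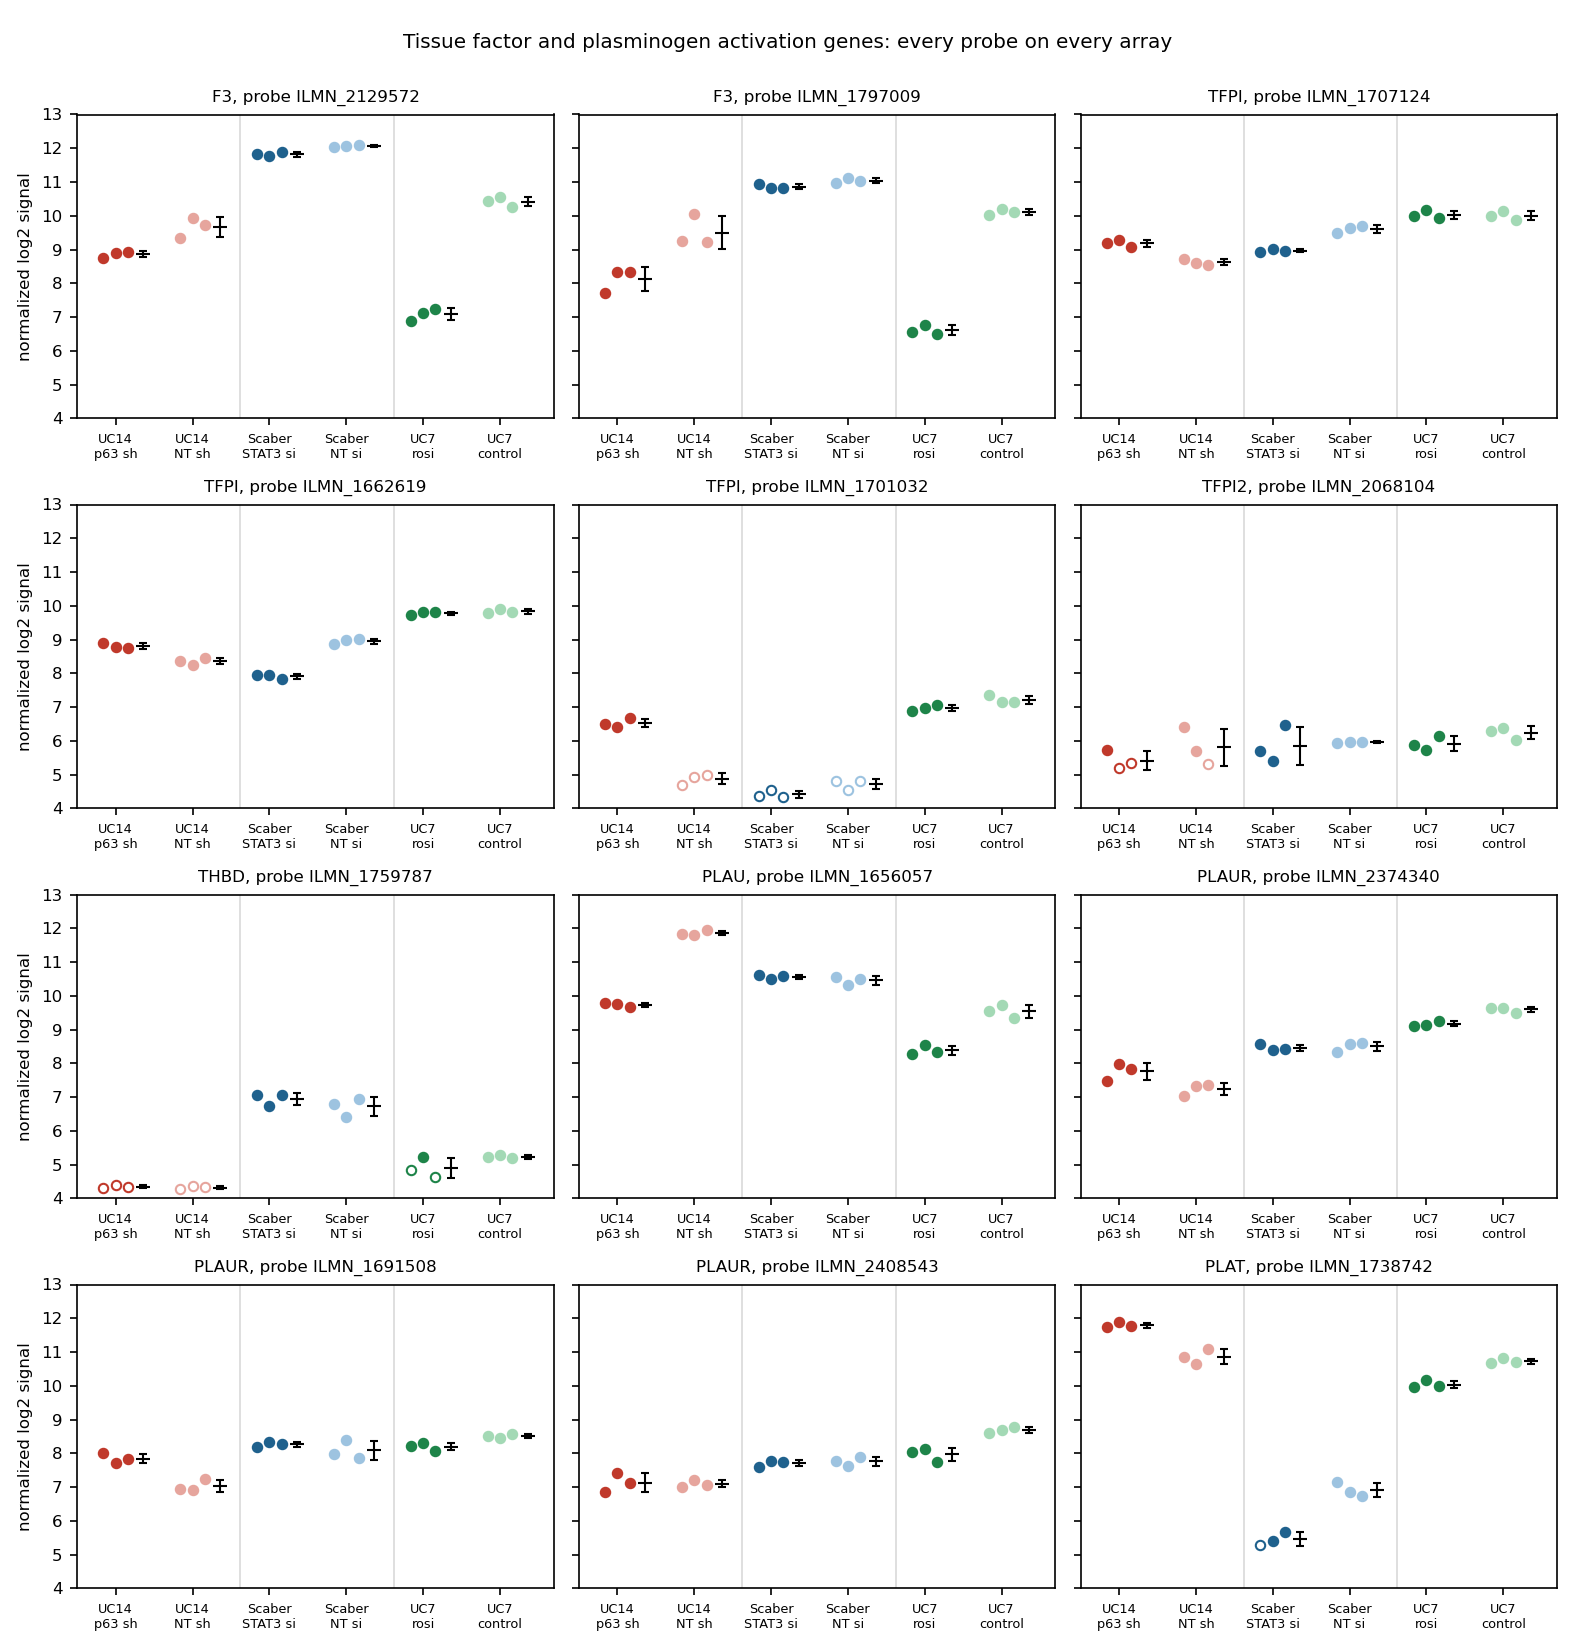
Normalized log2 signal (vertical axis) of the 12 probes on each of the 18 arrays, by group, with filled points where the probe was detected and open points where it was not, and bars for the mean ± SD (n = 3). F3 is lowest in UC7 with rosiglitazone, at 6.89 to 7.25 on its brightest probe, and PLAU is highest in UC14 with non-targeting shRNA, at 11.81 to 11.94.

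F3 fell in UC7 under rosiglitazone and in UC14 under p63 shRNA. Its brightest probe, ILMN_2129572, read 6.89, 7.13 and 7.25 in rosiglitazone-treated UC7 cells, against 10.43, 10.55 and 10.27 in control UC7 cells. All 3 treated arrays lay more than 3 log2 units below the lowest control array. The raw signals were 192.9, 248.4 and 266.0 with rosiglitazone, against 1993.6, 2303.7 and 1746.0 in controls. The difference was -3.33 ± 0.13, a 10.1-fold decrease, and it ranked number 1 among the falls of 11978 genes and number 6 by size in either direction. The further F3 probe, ILMN_1797009, read 6.54, 6.78 and 6.51 with rosiglitazone and 10.02, 10.21 and 10.10 in controls, a change of -3.50 ± 0.19. Both probes thus gave a decrease of about the same size. In the authors' deposited table of log2 values, the brightest probe differed by -2.83.

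In UC14, the brightest F3 probe read 8.75, 8.90 and 8.92 under p63 shRNA, against 9.35, 9.94 and 9.73 under non-targeting shRNA. The groups did not overlap, and the change was -0.82 ± 0.13. The further probe read 7.71, 8.32 and 8.33 under p63 shRNA and 9.24, 10.06 and 9.21 under non-targeting shRNA, a change of -1.38 ± 0.19. Non-targeting replicate 2 was the highest array of its group on both probes, and F3 kept its call without it. In Scaber, where F3 was bright, it read 11.82, 11.76 and 11.90 under STAT3 siRNA, against 12.04, 12.06 and 12.09 under non-targeting siRNA. The groups did not overlap, yet the difference of -0.24 ± 0.13 did not pass (adjusted p = 0.208, limma), nor did that of the further probe, at -0.18 ± 0.19 (adjusted p = 0.553, limma). The 3 lines' changes in F3 stand side by side here and were not tested against each other.

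TFPI, the inhibitor of the tissue factor complex, rose in UC14 and fell in Scaber. In UC14 the brightest probe, ILMN_1707124, read 9.18, 9.29 and 9.08 under p63 shRNA, against 8.73, 8.60 and 8.55 under non-targeting shRNA, a change of 0.56 ± 0.10. The probe ILMN_1662619 changed by 0.45 ± 0.09. The probe ILMN_1701032, annotated to another TFPI transcript, read 6.50, 6.42 and 6.67 under p63 shRNA and was not detected on any non-targeting array. It was at least 1.66-fold higher, a bound that sets the p63 shRNA mean (6.53) against the lowest detected signal of the non-targeting arrays, whose measured mean was 4.88. Without background correction this difference was 0.77, against 1.66 as fitted here. The 3 TFPI probes therefore gave the same direction in UC14, with the p63 shRNA arrays above the non-targeting arrays on each.

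In Scaber, TFPI probe ILMN_1707124 read 8.93, 9.02 and 8.94 under STAT3 siRNA, against 9.50, 9.62 and 9.71 under non-targeting siRNA, and fell by 0.64 ± 0.10. Probe ILMN_1662619 read 7.96, 7.95 and 7.83 under STAT3 siRNA and 8.86, 8.99 and 9.0 under non-targeting siRNA, and fell by 1.04 ± 0.09. The remaining TFPI probe was detected on no Scaber array. In UC7, TFPI was bright in both groups, at 9.99, 10.17 and 9.95 with rosiglitazone and 9.99, 10.15 and 9.87 in controls. The groups overlapped, and the difference of 0.03 ± 0.10 did not pass (adjusted p = 0.887, limma). The further UC7 differences, -0.05 and -0.24, did not pass either (adjusted p = 0.743 and 0.164, limma). The latter, of probe ILMN_1701032, passed with array weights (-0.23, adjusted p = 0.0299, limma).

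TFPI2 and THBD were dim and passed in none of the 3 comparisons. TFPI2 was detected on 1 p63 shRNA and 2 non-targeting arrays of UC14 and on every array of the other lines, and its differences were -0.39 in UC14, -0.11 in Scaber and -0.32 in UC7, each ± 0.26 (adjusted p = 0.253, 0.811 and 0.459, limma). With the UC7 arrays fitted alone, the TFPI2 difference in UC7 passed (adjusted p = 0.0402, limma). Its Scaber arrays were spread under STAT3 siRNA, at 5.69, 5.39 and 6.47, and close together under non-targeting siRNA, at 5.94, 5.98 and 5.97. THBD was not detected on any UC14 array. In Scaber it read 7.05, 6.72 and 7.05 under STAT3 siRNA and 6.80, 6.42 and 6.95 under non-targeting siRNA, with overlapping groups and a difference of 0.22 ± 0.15 (adjusted p = 0.310, limma). In UC7 it was detected on 1 rosiglitazone array and 3 control arrays and differed by -0.33 ± 0.15 (adjusted p = 0.122, limma). It passed in 6 of 17 alternatives, namely median scaling (-0.52), the UC7 arrays normalized alone (-0.51), the UC7 arrays fitted alone (-0.33), array weights (-0.35), the replicate number as a block (-0.33) and leaving out rosiglitazone replicate 2 (-0.49), with adjusted p = 0.0243 to 0.0481 in limma.

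PLAU fell in UC14 and in UC7. It read 9.79, 9.75 and 9.67 under p63 shRNA, against 11.84, 11.81 and 11.94 under non-targeting shRNA. The means were 9.74 ± 0.06 under p63 shRNA and 11.87 ± 0.07 under non-targeting shRNA (SD, n = 3), so the groups lay far apart for their spread. The change was -2.13 ± 0.11, a 4.38-fold decrease that ranked number 60 among the falls of 11978 genes, and the raw signals were 759.4, 654.5 and 826.3 under p63 shRNA against 2523.1, 2885.3 and 3079.2 under non-targeting shRNA. With rosiglitazone in UC7, PLAU read 8.27, 8.53 and 8.34, against 9.54, 9.73 and 9.35 in controls. The groups did not overlap, and the change of -1.16 ± 0.11, a 2.24-fold decrease, ranked number 163 among the falls. In Scaber, PLAU read 10.61, 10.49 and 10.59 under STAT3 siRNA and 10.54, 10.31 and 10.51 under non-targeting siRNA, and the difference of 0.11 ± 0.11 did not pass (adjusted p = 0.513, limma).

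PLAT, the other activator, rose in UC14 and fell in Scaber and UC7. In UC14 it read 11.73, 11.88 and 11.78 under p63 shRNA, against 10.86, 10.64 and 11.09 under non-targeting shRNA, a change of 0.94 ± 0.13. In the same p63 shRNA arrays, then, PLAT was higher and PLAU lower than in every non-targeting array. In Scaber it read 5.29, 5.41 and 5.67 under STAT3 siRNA, against 7.14, 6.86 and 6.74 under non-targeting siRNA, and was not detected on STAT3 siRNA replicate 1. The change there was -1.46 ± 0.13. It was -0.77 without background correction and in the authors' deposited table, which are nearly the same setting. The raw PLAT signals in Scaber were 104.9, 122.8 and 126.8 under STAT3 siRNA, against 199.6, 176.8 and 189.6 under non-targeting siRNA. In UC7 it read 9.95, 10.16 and 9.99 with rosiglitazone and 10.67, 10.81 and 10.71 in controls, and fell by 0.69 ± 0.13 with no overlap.

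PLAUR, the urokinase receptor, had 3 probes, which did not give the same calls. In UC14 the brightest, ILMN_2374340, read 7.48, 7.97 and 7.83 under p63 shRNA, against 7.04, 7.33 and 7.35 under non-targeting shRNA, and rose by 0.52 ± 0.12. With the 6 UC14 arrays fitted alone this probe did not pass (adjusted p = 0.0563, limma). Probe ILMN_1691508, annotated to the same transcript, read 8.0, 7.71 and 7.82 under p63 shRNA and 6.95, 6.92 and 7.24 under non-targeting shRNA, and rose by 0.81 ± 0.13. Probe ILMN_2408543, annotated to another PLAUR transcript, differed by 0.04 ± 0.13 with overlapping groups (adjusted p = 0.858, limma). In UC7 that last probe read 8.04, 8.13 and 7.75 with rosiglitazone, against 8.61, 8.68 and 8.78 in controls, and fell by 0.71 ± 0.13. The brightest probe read 9.12, 9.15 and 9.25 with rosiglitazone and 9.65, 9.63 and 9.50 in controls, and fell by 0.42 ± 0.12. That call was lost without rosiglitazone replicate 1 or 2 or control replicate 1 or 2, with adjusted p = 0.0642 to 0.0751 in limma. Probe ILMN_1691508 differed by -0.31 ± 0.13 in UC7 with no overlap (adjusted p = 0.100, limma). That difference passed with the UC7 arrays fitted alone (adjusted p = 0.00997, limma) and with array weights (adjusted p = 0.0102, limma). In Scaber the 3 probes differed by -0.04, 0.18 and -0.05, and none passed (adjusted p = 0.861, 0.351 and 0.818, limma).

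**Figure D2:**
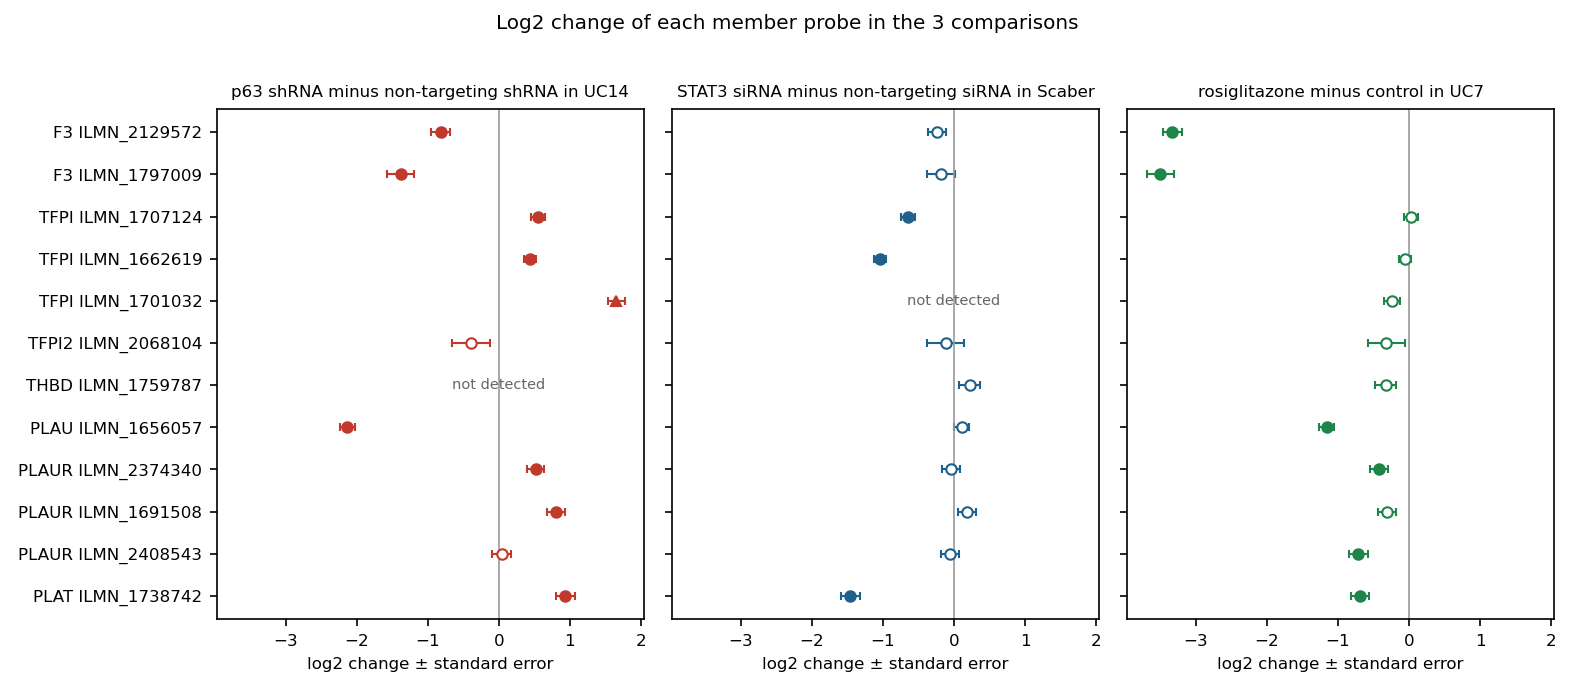
Log2 change (horizontal axis) of the 12 probes in the 3 comparisons, each point with its standard error, filled where the adjusted p was under 0.05 and drawn as a triangle where the probe was undetected on all arrays of 1 group. The F3 probes lie furthest to the left in UC7, at -3.33 and -3.50, and PLAU in UC14, at -2.13, while PLAT lies right of 0 in UC14 and left of 0 in Scaber and UC7.

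Counted by gene, 3 of 7 members rose, 2 fell and 2 did not pass in UC14, where 43.8% of all 11978 genes passed (23.3% higher and 20.5% lower). In Scaber 0 rose, 2 fell and 5 did not pass, where 25.4% of all genes passed (11.8% higher and 13.6% lower). In UC7 0 rose, 4 fell and 3 did not pass, where 23.6% of all genes passed (12% higher and 11.6% lower). Median scaling in place of quantile normalization set the share of higher genes among those called at 71.5%, 17.5% and 40.4% in UC14, Scaber and UC7, against 53.2%, 46.5% and 51% here. The members' median change was 0.03 in UC14, -0.11 in Scaber and -0.42 in UC7, beside medians of 0.01, 0.01 and 0.00 over all genes. Since the members were chosen with such results known, these shares are set side by side only. F3 and PLAU both fell in UC14 and UC7, PLAT was called in all 3 lines, and TFPI was called in opposite directions in UC14 and Scaber.

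**Figure D3:**
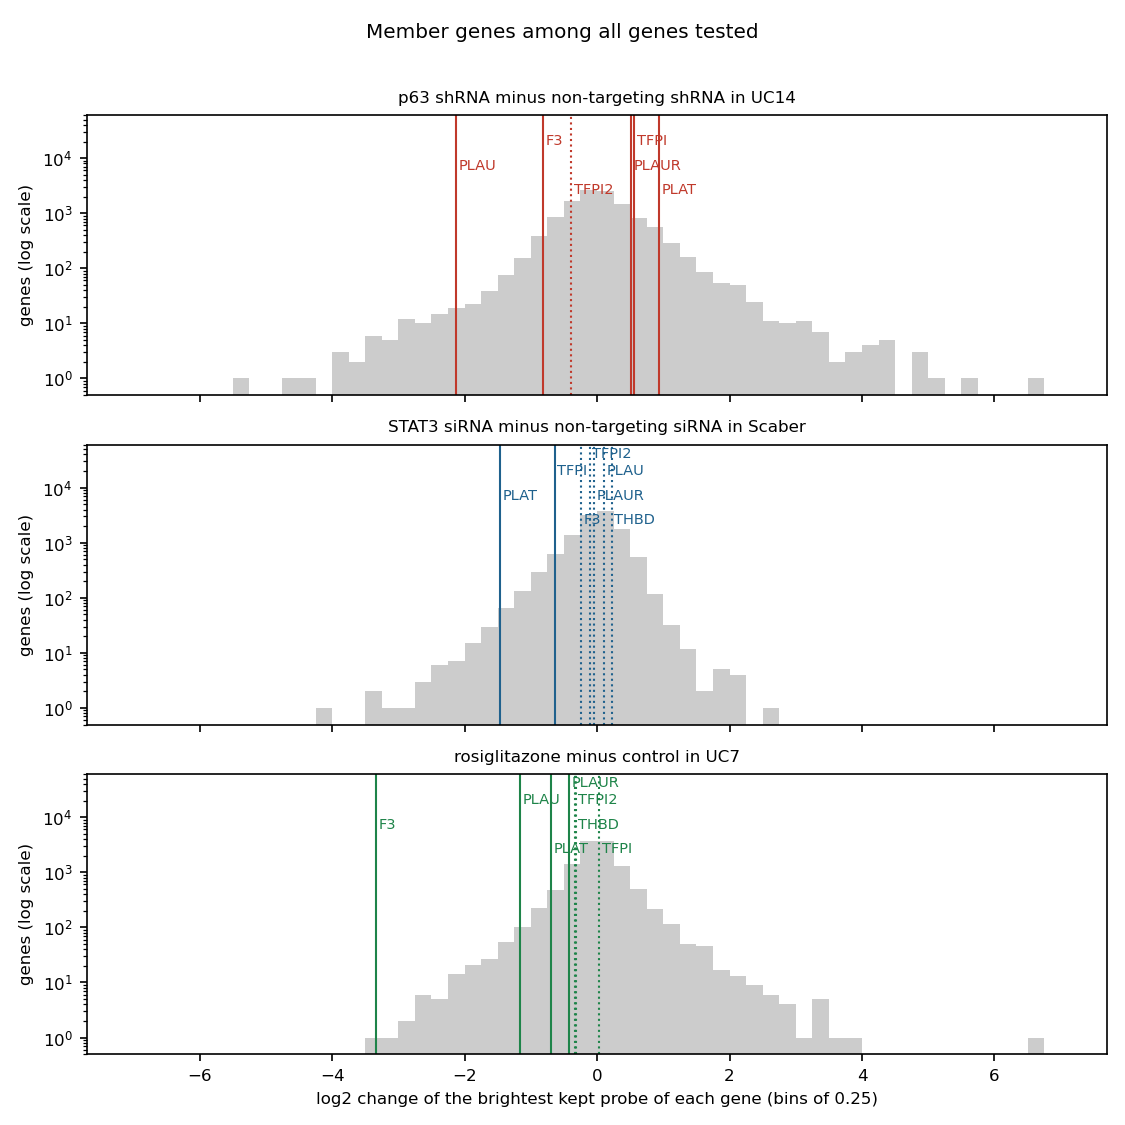
Number of genes (vertical log axis) by log2 change of the brightest probe, in bins of 0.25, for the 11978 genes of each comparison, with the member genes as lines, solid where called and dotted where not. F3 stands at the lower end of the UC7 distribution at -3.33, and PLAU stands in the lower tail in UC14 at -2.13.

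Genes with a profile most like that of each called member were found by Pearson correlation over the 18 arrays after subtracting the mean of each line. Arrays of a group share their treatment, so these values mostly describe the group differences. For F3 they were MSANTD3 (r = 0.98), the uridine phosphorylase UPP1 (0.98) and the transglutaminase TGM2 (0.97), whose UC7 changes were -1.12, -1.60 and -1.54. For PLAU they were ALOX5AP (0.99), a protein of leukotriene synthesis, the cytokine IL1A (0.99) and the gasdermin GSDME (0.99). Their UC14 changes were -3.30, -4.41 and -2.81 and their UC7 changes -1.86, -2.64 and -1.24, so each changed more than PLAU in both lines. For PLAT they were MAL2 (0.96), VKORC1 (0.95) and the creatine kinase CKB (0.94), for TFPI WBP1L (0.95), the deiodinase DIO2 (0.94) and TMBIM6 (0.93), and for PLAUR NBPF14 (0.91), P3H3 (0.90) and the receptor BMPR2 (0.89).

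Among other genes of coagulation and plasminogen activation, 50 were listed, 48 had a named probe and 22 were tested. In UC14 5 of the 22 rose and 5 fell, in Scaber 0 rose and 9 fell, and in UC7 2 rose and 5 fell. Of all genes, 23.3% rose and 20.5% fell in UC14, 11.8% and 13.6% in Scaber, and 12% and 11.6% in UC7, and the UC14 counts lie close to those shares. The medians over the 22 genes were 0.10, -0.11 and -0.06. The serpin SERPINE2, an inhibitor of thrombin and of plasminogen activators, fell in each line. Its mean was 10.34 ± 0.03 under p63 shRNA and 12.15 ± 0.16 under non-targeting shRNA, a change of -1.81 ± 0.10. It averaged 9.36 ± 0.14 under STAT3 siRNA and 10.25 ± 0.05 under non-targeting siRNA (-0.90 ± 0.10), and 10.36 ± 0.10 with rosiglitazone and 11.99 ± 0.12 in UC7 controls (-1.62 ± 0.10; SD, n = 3, beside each mean). Of 4 named genes in the list of plasminogen activator and plasmin inhibitors, 2 were tested, and the other, the broad protease inhibitor A2M, fell by 0.70 ± 0.09 in Scaber and was not detected in UC14 or UC7.

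Of 5 anticoagulant genes tested, PROCR, the endothelial receptor of protein C, fell by 1.65 ± 0.11 in UC14, with means of 7.43 ± 0.22 under p63 shRNA and 9.08 ± 0.17 under non-targeting shRNA (SD, n = 3). Its Scaber and UC7 differences, 0.10 and -0.15, did not pass (adjusted p = 0.589 and 0.404, limma). PROS1, the cofactor of protein C, rose by 0.44 ± 0.10 in UC14 and fell by 0.43 ± 0.10 in Scaber. SERPIND1, heparin cofactor II, rose by 0.38 ± 0.11 in UC7. Both rises lay near background. PROS1 was detected on 2 of 3 UC14 non-targeting arrays (mean 5.93). SERPIND1 averaged 5.61 with rosiglitazone and 5.23 in UC7 controls. Of 3 coagulation factors tested, F12 fell by 0.75 ± 0.13 in UC14. In Scaber FGG, the gamma chain of fibrinogen, was detected on 0 STAT3 siRNA arrays and 3 non-targeting arrays and was at least 1.80-fold lower (measured means 4.36 and 6.24). It was detected in no other group, so it was tested only because of its signal under non-targeting siRNA, and its fall is a description that lends the list's count no support. F8 was likewise detected on 0 STAT3 siRNA and 3 non-targeting arrays and was at least 1.14-fold lower (4.73 and 5.58). None of the 3 factors passed in UC7.

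In the vitamin K cycle, which makes clotting factors able to bind calcium, both GGCX and VKORC1 fell in Scaber, by 1.08 ± 0.09 and 0.68 ± 0.09. VKORC1 rose by 0.57 ± 0.09 in UC14 and fell by 0.28 ± 0.09 in UC7, where its further probe, at -0.44, did not pass (adjusted p = 0.0955, limma). Of 4 plasminogen-binding proteins tested, ENO1 fell by 0.33, 0.42 and 0.47 in UC14, Scaber and UC7, each ± 0.09. ANXA2 fell by 0.42 ± 0.10 in UC7 and PLGRKT rose by 0.41 ± 0.11 in UC14, while S100A10 passed in no line. Of 5 genes of epithelial serine proteases and the HGF axis tested, MET, the HGF receptor, fell by 1.11 ± 0.11 in UC14 and by 0.69 ± 0.11 in UC7. The membrane protease ST14 rose by 0.61 ± 0.10 in UC14. Its inhibitor SPINT1 rose by 0.85 ± 0.11 in UC14 and 0.36 ± 0.11 in UC7 and fell by 0.40 ± 0.11 in Scaber, and its further probe passed in none of the 3 (0.15, 0.25 and -0.39). The thrombin receptor F2R did not pass on its brightest probe (0.12, -0.11 and 0.15 in UC14, Scaber and UC7), but its further probe, ILMN_1742866, fell by 1.53 in Scaber. The brightest F2R probe had group means of 14.50 to 14.72, and whether so bright a signal hides a change was not tested. No gene of the contact system was tested.

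**Figure D4:**
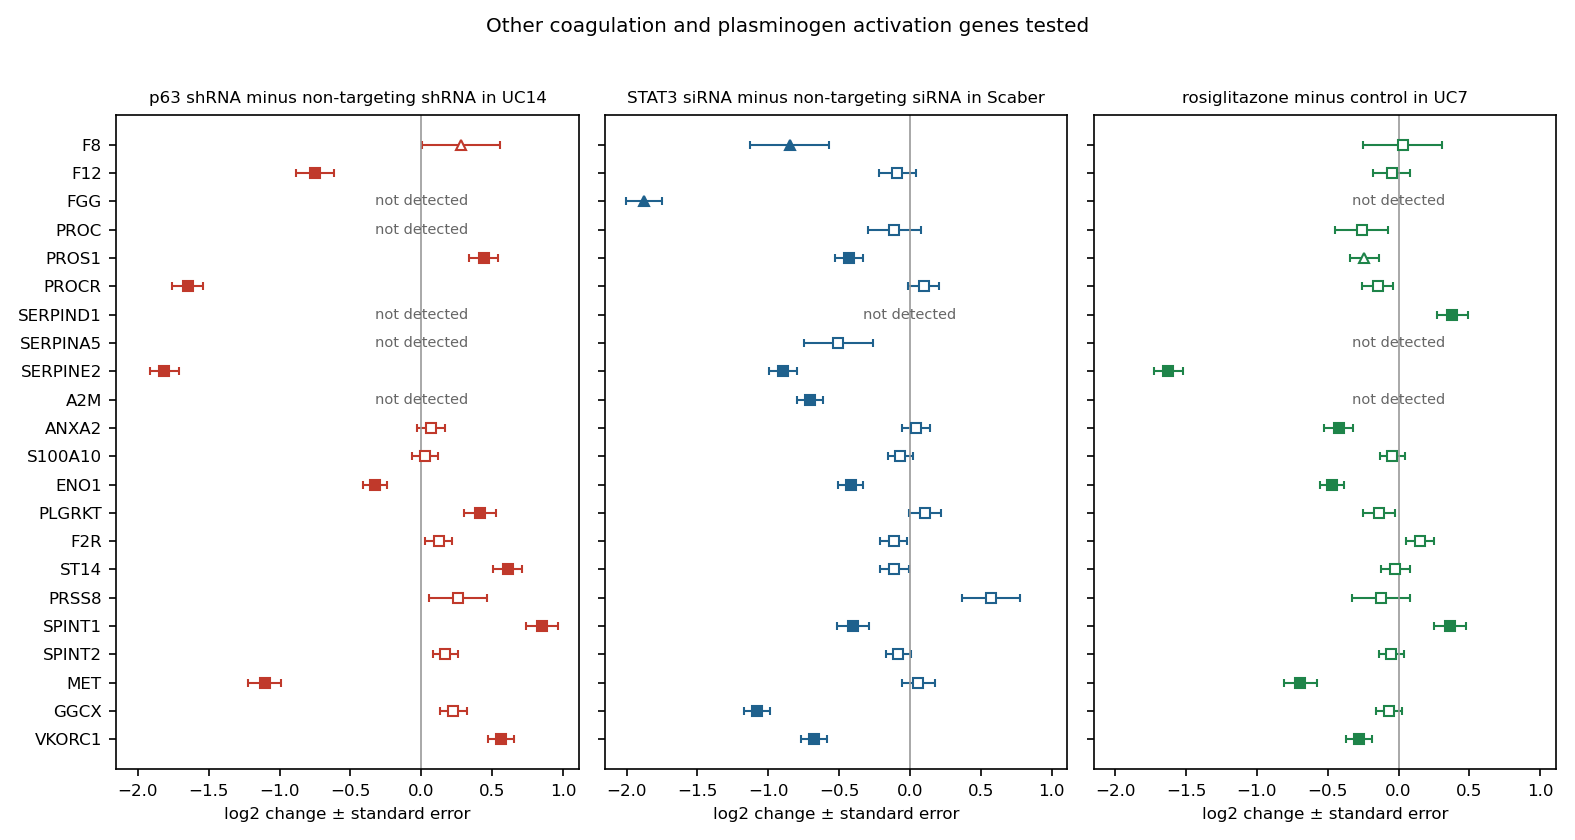
Log2 change (horizontal axis) of 22 further coagulation and plasminogen activation genes in the 3 comparisons, with standard errors, filled where the adjusted p was under 0.05 and drawn as triangles where 1 group was undetected on all its arrays. SERPINE2 lies left of 0 in each line, at -1.81, -0.90 and -1.62, and PROCR lies left of 0 in UC14 at -1.65.

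Among the control groups, counted by gene, 6 of 7 members differed between Scaber and UC14 (4 higher and 2 lower in Scaber, against 33% and 35.2% of all genes), 5 between UC7 and UC14 (4 higher and 1 lower in UC7, against 41.3% and 31.9%) and 6 between UC7 and Scaber (3 higher and 3 lower in UC7, against 42.8% and 32.1%). In either direction, 68.1%, 73.1% and 75% of all genes passed in these comparisons. Most genes thus differed between the lines, and the members' counts are set beside that background only. F3 read 10.42 ± 0.14 in UC7, 12.06 ± 0.02 in Scaber and 9.67 ± 0.30 in UC14 (SD, n = 3 each). Over all 6 groups the order of F3 was Scaber non-targeting, Scaber STAT3 siRNA, UC7 control, UC14 non-targeting, UC14 p63 shRNA and UC7 rosiglitazone, and no neighbours in it overlapped on the brightest probe. The further F3 probe gave the same order, but there UC7 control and UC14 non-targeting overlapped. Their difference on it, 0.61, did not pass without UC14 non-targeting replicate 3 (0.46, adjusted p = 0.0537, limma). PLAU read 9.54 ± 0.19 in UC7, 10.46 ± 0.13 in Scaber and 11.87 ± 0.07 in UC14, so it ran opposite to PLAUR, at 9.59 ± 0.09 in UC7, 8.50 ± 0.14 in Scaber and 7.24 ± 0.17 in UC14. In the order of PLAU over the 6 groups, UC14 with p63 shRNA stood next to the UC7 controls, and these neighbours overlapped.

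PLAT read 10.73 ± 0.08 in UC7, 6.91 ± 0.20 in Scaber and 10.86 ± 0.23 in UC14 (SD, n = 3 each). Scaber minus UC14 was -3.95 ± 0.13. UC7 minus UC14 was -0.13 and turned to 0.95 under median scaling. TFPI read 10.01 ± 0.14 in UC7, 9.61 ± 0.11 in Scaber and 8.63 ± 0.10 in UC14. THBD was detected on all Scaber and UC7 control arrays and on none of UC14, and was at least 1.89-fold higher in Scaber than in UC14. The TFPI probe ILMN_1701032 was detected on all 3 UC7 control arrays and on none of the Scaber or UC14 controls, and on the background-corrected scale it was at least 3.93-fold higher in UC7 than in Scaber and at least 2.67-fold higher than in UC14. Without background correction the log2 differences were 1.28 and 1.21, smaller than those folds, so the bounds hold on the corrected scale only. In TFPI2 the groups of neighbouring levels overlapped, except UC7 controls and Scaber controls.

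The median raw signal of an array was 51.6 to 56.3 in UC7, 96.3 to 115.9 in Scaber and 98.5 to 114.4 in UC14, so the lines also differed in raw signal, and the labels name no array run. Median scaling in place of quantile normalization moved the median difference of all genes to 1.15 (UC7 minus UC14), 0.87 (UC7 minus Scaber) and 0.26 (Scaber minus UC14). Under it, PLAU (-0.10) and F3 probe ILMN_1797009 (-0.21) no longer passed between UC7 and Scaber. TFPI2, which passed in none of the 3 line comparisons here, passed in each under that scaling (0.48 in Scaber minus UC14, 1.57 in UC7 minus UC14 and 1.09 in UC7 minus Scaber). Its UC7 minus UC14 difference, 0.43 here, also passed without UC14 non-targeting replicate 1, at 0.73 (adjusted p = 0.0140, limma).

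As a check of the interventions, STAT3 read 6.64 ± 0.21 under its siRNA and 9.90 ± 0.03 under non-targeting siRNA (SD, n = 3), a change of -3.26 ± 0.11. No probe carried the name TP63. Of 4 PPAR target genes in UC7, FABP4 (6.60), PDK4 (0.96) and ANGPTL4 (0.79) rose and PLIN2 (-0.24, adjusted p = 0.140, limma) did not pass. THBD, TFPI, PLAT and PROCR are also genes of endothelium, and F3, PLAU and PLAUR of macrophages. The summed signal of 5 endothelial markers was 155 to 193 under p63 shRNA and 121 to 169 under non-targeting shRNA, 115 to 121 under STAT3 siRNA and 120 to 157 under non-targeting siRNA, and 325 to 334 with rosiglitazone and 161 to 166 in UC7 controls. VWF, KDR and TEK were detected on no array and CDH5 on 1 rosiglitazone array, while PECAM1 averaged 7.84 with rosiglitazone and 6.10 in UC7 controls. The higher endothelial sum with rosiglitazone is thus mostly that of PECAM1. The summed signal of 4 leukocyte markers was 2964 to 3149 under p63 shRNA and 1172 to 1597 under non-targeting shRNA, 1963 to 2095 under STAT3 siRNA and 2956 to 2978 under non-targeting siRNA, and 291 to 315 with rosiglitazone and 234 to 244 in UC7 controls. PTPRC, which defines leukocytes, was detected on no array. CD68 averaged 11.53 under p63 shRNA and 10.27 under non-targeting shRNA, and CD14 averaged 5.62 and 5.65. ITGAM was detected on no UC14 array, so the leukocyte sum in UC14 follows CD68 alone. In Scaber CD14 averaged 8.88 under STAT3 siRNA and 10.0 under non-targeting siRNA, and CD68 averaged 10.57 and 10.88. In UC7 CD14 averaged 7.34 with rosiglitazone and 5.90 in controls. CD68 (6.43 and 6.84) and ITGAM (5.08 and 5.35) were lower there with rosiglitazone. The part of these markers in the members' values was not tested.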

How the data were processed

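Total RNA of 18 samples, 3 in each of 6 groups taken from the labels, was measured on Illumina bead arrays. The authors deposited signal intensity values without normalization, each with a detection p-value, per the file headers, together with a table of log2 values. For UC14 non-targeting shRNA replicate 1, the sorted values of that table matched those of quantile-normalized raw signals to within 0.00176. The other arrays were not compared in this way. The median log2 over the whole table was 6.48. Per the submitters' processing notes limma was used, with no version stated.

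Intensities were corrected by normexp from the detection p-values with an offset of 16, quantile normalized and log2-transformed (neqc, limma 3.58.1, R 4.3.3). Probes were named from the platform annotation (30113 of 47323 with 1 symbol, 8 with several, 17202 not listed). Named probes detected (p under 0.01) throughout 1 or more groups were tested, 16221 probes of 11978 genes. Group means were fitted to all 18 arrays with lmFit and eBayes (12 residual and 4.27 prior degrees of freedom), with two-sided p-values adjusted by Benjamini-Hochberg. A bound on a fold sets the bright group's mean against, per dim array, the higher of the lowest detected signal and the probe's own. The number of arrays limits the precision. The fit was tested on simulated data. It called 42%, 30% and 40% of simulated log2 changes of 0.5 with the right sign in UC14, Scaber and UC7. For changes of 1 it called 92%, 94% and 84%. A difference of 0.5 or less that did not pass may therefore have been missed.

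Members, lists and markers were chosen with earlier results of these data known. Named were all members, in each list up to 4 called genes with the largest change, and 3 genes most like each called member; values of other listed genes complete a list's account. Alternatives covered background, scaling, filter, array weights, the arrays fitted, blocks and left-out arrays.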

Additional observations from a re-analysis of the deposited data

How the results depend on the processing

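The member probes gave 621 values in the 3 comparisons under the alternatives. Of these, 593 kept direction and call, 12 gained and 5 lost a call. The other 11 changed sign, and none of them passed in either setting. The authors' values and the setting without background correction are not separate alternatives. Both set the share of higher genes among those called at 52.7%, 49.1% and 51.5% in UC14, Scaber and UC7. Of 18 called probe differences, 16 kept direction and call in every setting, and the others were those of PLAUR probe ILMN_2374340 in UC14 and UC7. Sign changes under median scaling or array weights were those of TFPI probe ILMN_1707124 in UC7 (-0.0476 and -0.0053), and with array weights those of PLAUR probe ILMN_2374340 (0.0094) and TFPI2 (0.0878) in Scaber. With 1 array left out, differences spanned 0 for PLAUR probe ILMN_2408543 in UC14 (-0.1009 to 0.1759), that TFPI probe in UC7 (-0.0369 to 0.1033), PLAUR probes ILMN_2408543 (-0.1205 to 0.0063) and ILMN_2374340 (-0.1211 to 0.0023) in Scaber, TFPI2 in Scaber (-0.4239 to 0.1173) and TFPI2 between Scaber and UC14 controls (-0.0854 to 0.4546). PLAT between UC7 and UC14 controls, -0.13 and not passing with quantile normalization, passed with the opposite sign (0.95) under median scaling. Requiring detection on all 18 arrays left 4 members and 1 call in Scaber. Called genes in UC7 numbered 2825, and 4711 with its 6 arrays alone and 4854 with array weights. The further pathway genes called in UC7 fell to 4 under median scaling, which set the share of higher calls at 71.5% in UC14, 17.5% in Scaber and 40.4% in UC7, against 53.2%, 46.5% and 51% with quantile normalization, and at 68.7% (Scaber minus UC14), 92.5% (UC7 minus UC14) and 83.7% (UC7 minus Scaber), against 48.4%, 56.4% and 57.1%. The cause was not tested.

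The estimated array weights ranged over 1.16 to 2.44 for UC7 and 0.370 to 0.774 for UC14 arrays. With the replicate number as a block, 5, 2 and 5 members were called in UC14, Scaber and UC7, and with the title letter 5, 2 and 4, against 5, 2 and 4 without a block. In UC7, THBD passed with the number block (-0.33), as in 5 other settings. In no comparison did same-numbered arrays' deviations correlate over 0.1 in every pair, and in none did every array correlate best with its own number. The pairs were mixed, with r from -0.09 (replicate 1) to 0.23 (replicate 2) in Scaber. Deviations within such small groups cannot exclude pairing, so whether same-numbered arrays belong together was not determined. Signal near background limits TFPI2, THBD and PLAT in Scaber, where the PLAT change shrank without background correction. It also limits PROS1 in UC14 and SERPIND1 in UC7.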
